A study of Arabidopsis thaliana with 6 samples.

Results

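The genes described here are nuclear genes of Arabidopsis thaliana for the chloroplast NDH complex and for the assembly and repair of photosystems I and II, with a few other thylakoid proteins. They come from a list of 46 that was made with earlier results of these data known. Counts and medians set beside all tested probe sets below are therefore descriptions, not evidence of enrichment. The genes were chosen from the list by locus, and a gene was kept where a probe set of the ATH1 array named it and no other gene. This left 11 of the 46, each with 1 probe set, among 13513 probe sets that named 1 gene and 22810 in all. By role, they were 3 of 7 listed subunits of NDH subcomplex A and its electron donor module, 4 of 11 photosystem II synthesis and assembly factors, 2 of 4 photosystem I assembly factors and 2 of 5 other thylakoid proteins. The 5 subunits of NDH subcomplex B, 5 of the lumen subcomplex, 4 NDH biogenesis factors and 5 photosystem II repair factors on the list were not named by a probe set here and are not analysed here.

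Total RNA of whole young seedlings, with cotyledons, hypocotyl and primary root, was measured on 6 arrays in 3 groups of 2. These were gun1,gun5 double mutant seedlings on 5 µM norflurazon, wild type Col-0 seedlings on the same dose, and a control of untreated wild type Col-0 seedlings. All seedlings spent 3 days in darkness and 3 further days under constant white light, at 23 °C and with 1.5% sucrose in the medium. Norflurazon inhibits the making of carotenoids, without which illuminated chloroplasts bleach, and gun (genomes uncoupled) mutants keep nuclear photosynthesis genes partly expressed when plastids are damaged. The labels give no alleles for the mutant, gun1 and gun5 were not among the loci named here, and untreated mutant seedlings were not analysed here, so the mutant's own response to the herbicide cannot be given. Whether the 2 samples of each group were grown apart is not stated, and a p-value therefore rests on a spread between same-group samples that may be technical. That spread was pooled over all 3 groups, the one not compared included, and was drawn towards that of all tested probe sets.

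The chloroplast NDH complex sits in the thylakoid membrane, where it takes electrons from reduced ferredoxin and passes them to plastoquinone in cyclic electron flow around photosystem I. Its membrane and core subunits are encoded partly in the plastid genome, and its remaining subunits, all those of the electron donor module included, in the nucleus. Photosystems are likewise built from plastid-encoded core proteins and nuclear-encoded subunits, and nuclear-encoded assembly factors join the parts, insert cofactors and help to replace damaged proteins.

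All values below are MAS5 signals, which are probe set intensities on a linear scale, or log2 differences between group means of log2(signal + 0.05). The 2 control arrays were the most alike of the pairs: the log2 differences of the 11 genes between same-group arrays had a standard deviation of 0.25 in the mutant, 0.39 in wild type on norflurazon and 0.17 in the control. An older actin control probe set pair had a 3′ to 5′ signal ratio, a sign of RNA quality, of 7.77 and 7.99 on mutant arrays and 7.66 and 8.17 on wild type norflurazon arrays, against 4.82 and 4.65 on control arrays. A newer pair for actin had 2.00 and 3.21, 1.65 and 3.63, and 2.46 and 2.78 on the same arrays, so that its groups overlapped. The same ratio for GAPDH was higher on all norflurazon arrays, with 1.13 and 1.21 in the mutant and 1.02 and 1.17 in the wild type, against 1.003 and 0.952 in the control, and that for ubiquitin overlapped between groups. The 25S ribosomal RNA control probe set had 2511.1 on wild type norflurazon replicate 1 and between 8.2 and 115.6 on the others. Of 18 listed root markers 2 were named, and their summed signal was 115.3 and 94.1 in the mutant, 113.0 and 58.9 in wild type on norflurazon, and 121.0 and 129.1 in the control; 0 of the 2 passed the limma test in any comparison, also at an unadjusted p under 0.05. FAMA, the 1 named of 8 markers for shoot epidermis and guard cells, had 24.4 and 23.2, 24.9 and 19.5, and 40 and 37.2 in the same order. All its norflurazon signals were thus below both control signals, but it lay under the filter for low signals and was not tested. The part of RNA quality, labelling and tissue make-up in the results below was not tested, and in whole seedlings fewer cells of a type cannot be told apart from less RNA per cell.

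**Figure D1:**
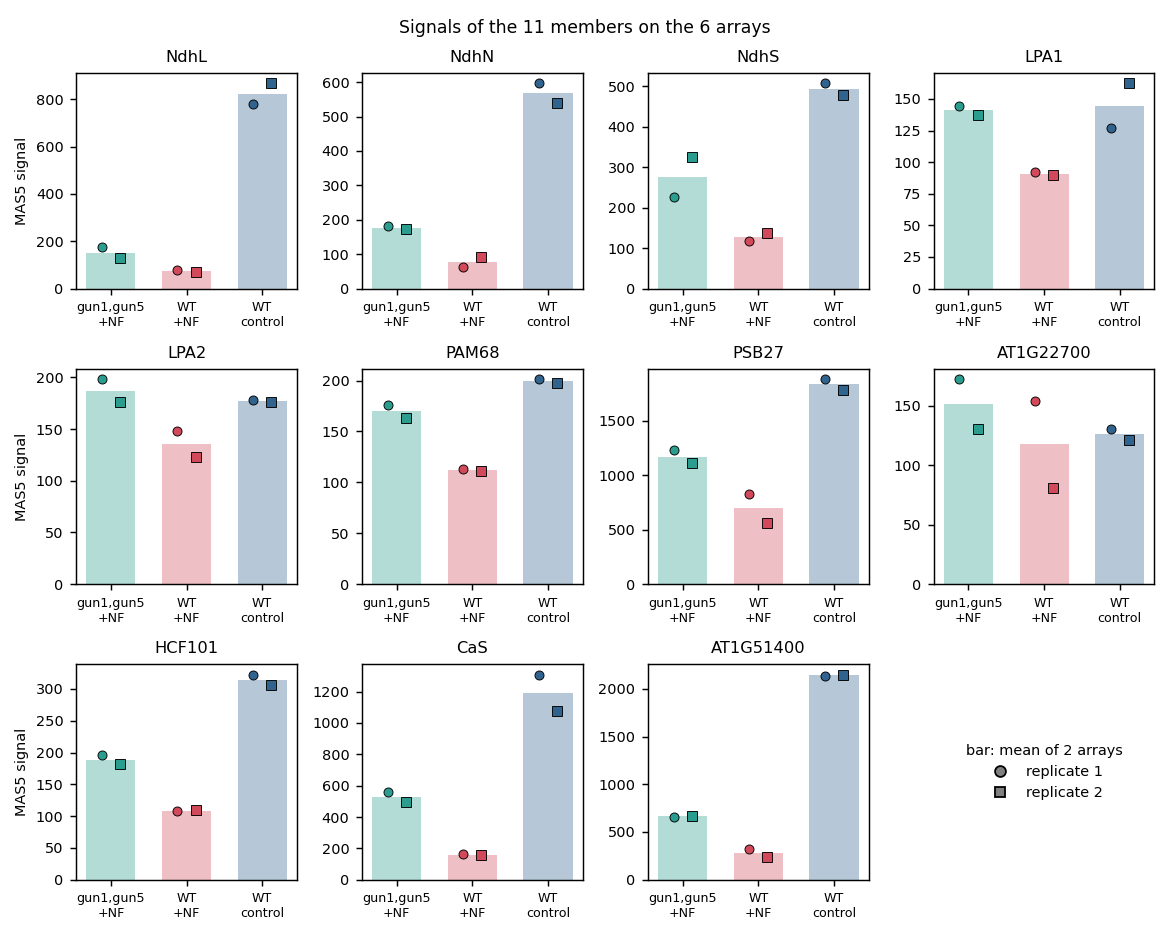
MAS5 signal (linear scale, each panel with its own axis from 0) of the 11 genes in gun1,gun5 on norflurazon (NF), wild type (WT) on norflurazon and wild type control; points are the 2 arrays of a group and bars their mean. NdhL, NdhN, CaS and AT1G51400 stand far higher in the control than on any norflurazon array. The groups of AT1G22700 overlap in each comparison, and those of LPA1 and LPA2 overlap between gun1,gun5 and the control.

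The first comparison asked how norflurazon changed these transcripts in the wild type. Of the 11 genes 8 fell and 0 rose, and the falls ranged from 11.02-fold for NdhL to 1.78-fold for PAM68. The NDH subunit genes, the thylakoid calcium sensor gene CaS and AT1G51400 fell most, and the photosystem II factors LPA1 and LPA2 and the gene AT1G22700 did not pass the test. Over all 13648 tested probe sets, 9.85% were lower and 9.06% higher (limma, adjusted p under 0.05). The median log2 difference of the 11 genes was -1.54, beside 0.06 over all tested probe sets. Both norflurazon arrays lay below both control arrays for 10 of the 11 genes, a pattern that 28% of all tested probe sets showed. At an unadjusted p under 0.05, 9 of the 11 were lower and 0 higher, beside 16% and 18.1% of all tested probe sets.

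All 3 NDH subunit genes fell, with log2 differences between -3.46 and -1.94. NdhL (AT1G70760), which encodes a membrane subunit of subcomplex A, had signals of 78.7 and 70.7 on norflurazon, against 780.5 and 866.4 in the control. The norflurazon signals were thus at 9.07% of the control mean, with a log2 difference of -3.46 ± 0.20 (SE, n = 2 per group; limma adjusted p = 5.63e-05). Only 0.264% of the tested probe sets had a more negative value.

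NdhN (AT5G58260), a stroma-facing subunit of subcomplex A, had 63.5 and 93.3 on norflurazon, against 596.0 and 538.5 in the control. Its log2 difference was -2.88 ± 0.22 (SE; limma adjusted p = 0.000196), which put it at 13.8% of the control mean. The electron donor module holds the site to which ferredoxin binds, and NdhS (AT4G23890) is its subunit with that role. NdhS had 118.5 and 138.5 on norflurazon, against 506.9 and 478.6 in the control, a log2 difference of -1.94 ± 0.22 (SE; limma adjusted p = 0.000993). For all 3 genes the groups were separated by far more than the gap between arrays of a group.

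The differences of the photosystem II factors were smaller than those of the NDH subunit genes, a contrast that was not tested. PSB27 (AT1G03600) encodes a lumen protein that binds photosystem II during its assembly and repair, and had 829.6 and 562.5 on norflurazon, against 1885.3 and 1786.6 in the control. It fell by 1.43 on the log2 scale (SE 0.20; limma adjusted p = 0.00268). PAM68 (AT4G19100), a thylakoid membrane protein of early photosystem II assembly, had 113.6 and 111.1 on norflurazon, against 201.5 and 197.9 in the control. Its 2 arrays per group almost coincided, and it fell by 0.83 (SE 0.17; limma adjusted p = 0.0141).

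LPA1 (AT1G02910), which helps the D1 protein of photosystem II into the membrane, had 92.1 and 89.5 on norflurazon, against 126.7 and 162.2 in the control. The arrays did not overlap, but the difference of -0.66 did not pass (SE 0.19, 95% interval -1.11 to -0.21, limma adjusted p = 0.0509). Its SE was close to that of PSB27, which passed with a larger difference. LPA2 (AT5G51545), named for low photosystem II accumulation in its mutant, had 148.5 and 123.1 on norflurazon, against 177.7 and 176.5 in the control. Its difference of -0.39 (95% interval -0.82 to 0.04; limma adjusted p = 0.182) did not pass, and the interval leaves room for a fall of the size seen in LPA1.

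The 2 genes listed with photosystem I assembly differed from each other. HCF101 (AT3G24430), a scaffold protein that carries the iron-sulphur clusters needed by photosystem I, had 107.7 and 109.0 on norflurazon, against 322.6 and 306.5 in the control. It fell by 1.54 (SE 0.17; limma adjusted p = 0.000968) to 34.5% of the control mean. AT1G22700, which has no gene name in the annotation used here, had 154.6 and 80.8 on norflurazon, against 130.9 and 121.2 in the control. The 2 norflurazon arrays lay on either side of the control arrays, and the difference was -0.17 (95% interval -0.89 to 0.54; limma adjusted p = 0.73); without wild type norflurazon replicate 2 it was 0.30.

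CaS (AT5G23060), a thylakoid protein involved in calcium signalling, had 163.6 and 154.6 on norflurazon, against 1309.1 and 1073.5 in the control. Its log2 difference was -2.90 ± 0.17 (SE; limma adjusted p = 5.96e-05). AT1G51400, also without a gene name in the annotation, had 316.9 and 239.9 on norflurazon, against 2134.2 and 2150.8 in the control. Its log2 difference was -2.96 ± 0.17 (SE; limma adjusted p = 5.63e-05), and both genes were left at about the same share of the control, 13.4% for CaS and 13.0% for AT1G51400.

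In the order of their differences, NdhL was followed by AT1G51400, CaS, NdhN, NdhS, HCF101, PSB27, PAM68, LPA1, LPA2 and AT1G22700. The 95% intervals of neighbours in this order overlapped, and differences between genes were not tested. The call of PAM68 was lost without control replicate 1 or control replicate 2, each of which leaves 1 control array. Its difference lay between -0.885 and -0.749 over 17 alternatives. The other 7 calls passed in 17 of 17 alternatives, and the count was 8 without either wild type norflurazon array.

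**Figure D2:**
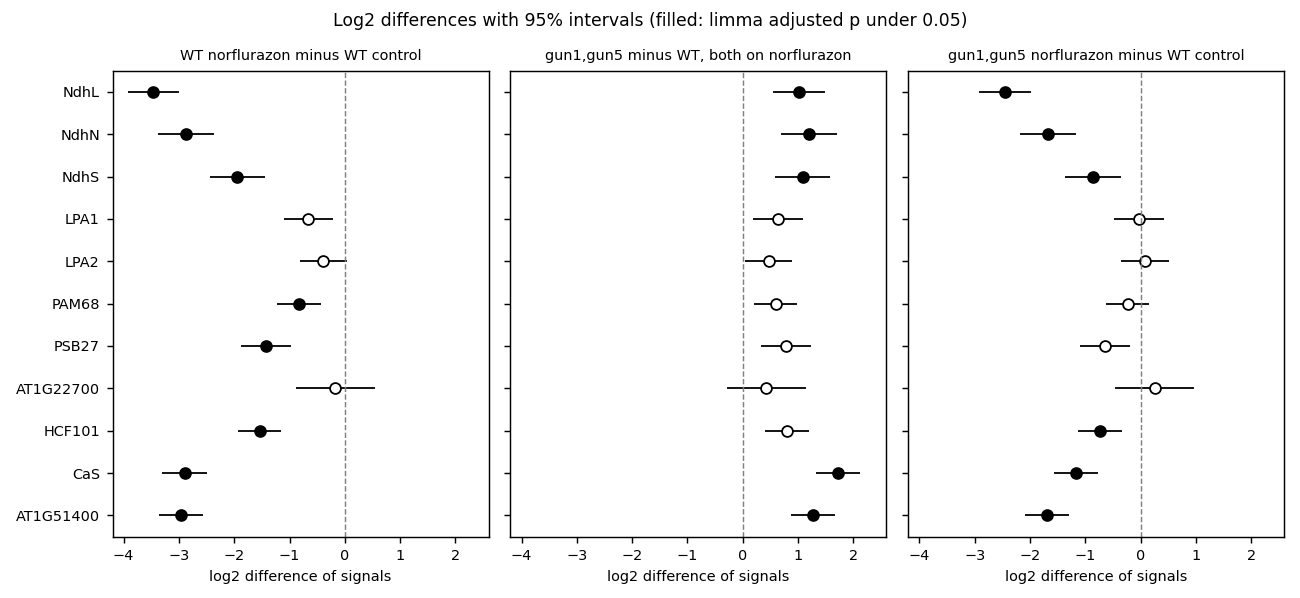
Log2 difference of signals (x axis) with its 95% interval from limma for each gene (y axis), in wild type norflurazon minus wild type control, gun1,gun5 minus wild type on norflurazon, and gun1,gun5 on norflurazon minus wild type control; filled points have an adjusted p under 0.05. In the left panel 8 points are filled and all lie below 0, in the middle panel 5 are filled and all lie above 0, and in the right panel 6 are filled and lie below 0.

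The second comparison asked how the gun1,gun5 mutant differed from the wild type when both grew on norflurazon. Of the 11 genes 5 were higher in the mutant and 0 lower: CaS, AT1G51400 and the 3 NDH subunit genes, by 3.31-fold to 2.02-fold. CaS and AT1G51400 are on the list as other thylakoid proteins, not as NDH or assembly genes. Over all tested probe sets, 1.83% were higher and 1.11% lower (limma, adjusted p under 0.05). The median log2 difference of the 11 genes was 0.80, beside -0.04 over all tested probe sets. Both mutant arrays lay above both wild type arrays for 10 of the 11 genes, as for 17.7% of all tested probe sets. At an unadjusted p under 0.05, 10 of the 11 were higher and 0 lower, beside 7.85% and 8.37% of all tested probe sets. This comparison shares its wild type norflurazon arrays with the first, so a low signal there lowers the one and raises the other.

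CaS had the largest difference of the 11, with signals of 562.1 and 493.4 in the mutant, against 163.6 and 154.6 in the wild type. It was higher by 1.73 ± 0.17 (SE, n = 2 per group; limma adjusted p = 0.00312) on the log2 scale. AT1G51400 had 656.9 and 671.0 in the mutant, against 316.9 and 239.9 in the wild type, and differed by 1.27 ± 0.17 (SE; limma adjusted p = 0.0104). Neither gene had mutant and wild type arrays near each other.

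NdhN had 181.0 and 173.2 in the mutant, against 63.5 and 93.3 in the wild type, and was higher by 1.20 ± 0.22 (SE; limma adjusted p = 0.0307). NdhS had 226.3 and 325.0 in the mutant, against 118.5 and 138.5 in the wild type, and differed by 1.08 ± 0.22 (SE; limma adjusted p = 0.0416). NdhL had 174.2 and 130.1 in the mutant, against 78.7 and 70.7 in the wild type, and differed by 1.01 ± 0.20 (SE; limma adjusted p = 0.0418). The 3 subunit genes, whose falls in the wild type spanned -3.46 to -1.94, thus had similar differences here, between 1.01 and 1.20. Their mutant arrays were the less even ones for NdhS and NdhL, and the wild type arrays for NdhN.

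HCF101 had 196.7 and 181.2 in the mutant, against 107.7 and 109.0 in the wild type, a difference of 0.80 that did not pass (95% interval 0.41 to 1.19; limma adjusted p = 0.0509). PSB27 had 1232.0 and 1111.3 in the mutant, against 829.6 and 562.5 in the wild type, a difference of 0.78 (95% interval 0.32 to 1.23; limma adjusted p = 0.0917). In both the groups were apart, but the p-values adjusted over all probe sets were above the threshold in this fit.

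LPA1 had 144.2 and 137.6 in the mutant, against 92.1 and 89.5 in the wild type, a difference of 0.63 (95% interval 0.18 to 1.08; limma adjusted p = 0.155). PAM68 had 175.6 and 163.6 in the mutant, against 113.6 and 111.1 in the wild type, a difference of 0.59 (95% interval 0.20 to 0.99; limma adjusted p = 0.131). LPA2 had 198.4 and 176.0 in the mutant, against 148.5 and 123.1 in the wild type, a difference of 0.47 (95% interval 0.04 to 0.90; limma adjusted p = 0.264). These 3 photosystem II factors had arrays that did not overlap and intervals above 0 before adjustment, and none passed after it. AT1G22700 had 172.7 and 130.7 in the mutant, against 154.6 and 80.8 in the wild type, and its arrays overlapped (difference 0.43, 95% interval -0.29 to 1.14; limma adjusted p = 0.591); without wild type norflurazon replicate 2 it was -0.041.

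Without control replicate 1, control replicate 2 or mutant replicate 2, and with the 4 compared arrays alone, 1 of the 11 passed in each case, which was CaS. Without mutant replicate 1, CaS and NdhS passed; without wild type norflurazon replicate 1 the call of NdhS was lost, and without replicate 2 that of NdhL. CaS passed in 17 of 17 alternatives, AT1G51400 in 12, NdhN in 11, NdhS in 10 and NdhL in 8, and all 5 differences stayed positive in all 17.

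**Figure D3:**
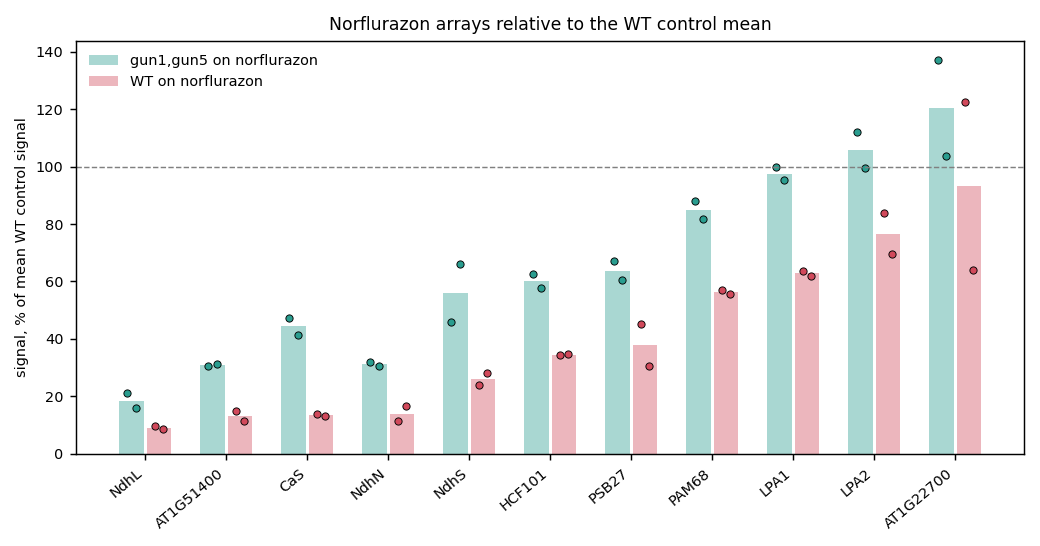
Signal of each gene on norflurazon as a percentage of the mean wild type control signal (y axis), for gun1,gun5 and for wild type; bars are means of 2 arrays, points the arrays, and the dashed line marks 100%. The bars run from 9.07% for NdhL to 93.4% for AT1G22700 in wild type, and the mutant bar is the taller of the pair for each of the 11 genes.

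The third comparison set the mutant on norflurazon against the untreated wild type, so that genotype and herbicide differ together and cannot be told apart. Of the 11 genes 6 were lower in the mutant and 0 higher. These were NdhL, AT1G51400, NdhN, CaS, NdhS and HCF101, while the 3 assembly factors LPA1, LPA2 and PAM68 lay within 0.24 log2 units of the control. Over all tested probe sets, 10.3% were lower and 8.55% higher (limma, adjusted p under 0.05). The median log2 difference of the 11 genes was -0.74, beside 0.01 over all tested probe sets. Both mutant arrays lay below both control arrays for 8 of the 11, as for 33.6% of all tested probe sets. At an unadjusted p under 0.05, 7 of the 11 were lower and 0 higher, beside 17.2% of all tested probe sets in either direction. The comparison shares arrays with both others.

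NdhL stayed furthest below the control, with a mean of 152.1 ± 31.2 in the mutant and 823.4 ± 60.7 in the control (SD, n = 2 each; log2 difference -2.45 ± 0.20 SE, limma adjusted p = 0.000616). This was 18.5% of the control mean. For NdhN the mutant stood at 31.2% of the control mean (log2 difference -1.68 ± 0.22 SE, limma adjusted p = 0.00298), and for NdhS at 55.9% (log2 difference -0.86 ± 0.22 SE, limma adjusted p = 0.0297). AT1G51400 was at 31.0% (log2 difference -1.69 ± 0.17 SE, limma adjusted p = 0.0012) and CaS at 44.3% (log2 difference -1.17 ± 0.17 SE, limma adjusted p = 0.00468). CaS and AT1G51400, alike in the treated wild type, were thus at different shares of the control in the mutant, a difference that was not tested.

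HCF101 was at 60.1% of the control mean in the mutant (log2 difference -0.74 ± 0.17 SE, limma adjusted p = 0.0225). PSB27 was at 63.8%, with a difference of -0.65 that did not pass (95% interval -1.10 to -0.20; limma adjusted p = 0.0547). PAM68 was at 84.9%, with -0.24 (95% interval -0.63 to 0.16; limma adjusted p = 0.368). LPA1 and LPA2 were at 97.6% and 105.7% of the control mean. Their differences of -0.03 (95% interval -0.47 to 0.42) and 0.08 (95% interval -0.35 to 0.51) did not pass, and the intervals leave small changes in either direction possible. AT1G22700 was at 120.4%, with a difference of 0.25 (95% interval -0.46 to 0.97; limma adjusted p = 0.601). Without control replicate 1 only 2 of the 6 calls passed, NdhL and AT1G51400. Without control replicate 2, or without mutant replicate 1, 4 passed in each case, and NdhS and HCF101 were the calls lost; without mutant replicate 2 that of HCF101 was lost.

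Read by replicate number, the direction of these differences was the same on both pairs of arrays for most genes. Norflurazon arrays were lower than the same-numbered control arrays in both numbers for 10 of the 11 genes in the wild type, with AT1G22700 the exception at 0.24 and -0.58, and so were 32.4% of all tested probe sets. Mutant arrays were higher than same-numbered wild type arrays on norflurazon in both numbers for 11 of 11 genes, and for 27.2% of all tested probe sets. For CaS the 2 differences were 1.78 and 1.67, for NdhN 1.51 and 0.89, and for AT1G51400 1.05 and 1.48.

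Related gene lists were set beside the 11 genes. Of 11 further thylakoid biogenesis factors that were tested, from 32 listed, 6 fell and 0 rose in the wild type on norflurazon, with a median of -0.79. Of all tested probe sets, 9.85% fell and 9.06% rose. The largest of these changes was that of CCB3, a factor of cytochrome b6f complex assembly, at -1.23 ± 0.25 (SE; limma adjusted p = 0.0142). In the mutant on norflurazon 0 of these 11 passed the limma test in either direction, with a median of 0.60. At an unadjusted p under 0.05, 8 of them were higher and 0 lower, where 7.85% and 8.37% of all tested probe sets were. Of 23 listed nuclear photosystem subunits 4 were tested. All 4 fell in the wild type, and 3 of the 4 were higher in the mutant, with medians of -2.20 and 1.21. In the same comparisons 9.85% of all tested probe sets fell and 1.83% were higher. Among the 4 subunits PSAE1, on the stromal side of photosystem I, had the largest changes in both comparisons. These were -3.73 for norflurazon against control and 2.49 for gun1,gun5 against wild type. Against the control all 4 were lower in the mutant, beside 10.3% of all tested probe sets. In that comparison 0 of the 11 further factors passed the limma test, with a median of -0.09 and 1 lower at an unadjusted p under 0.05. The 1 tested gene of 13 listed thylakoid proteases, kinases and phosphatases, AT4G17740, fell by 0.73 in the wild type.

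Plastid-encoded NDH subunits are the partners of NdhL, NdhN and NdhS in the complex. Of 12 listed 10 were named and 7 tested, since ndhF, ndhG and ndhH lay under the signal filter. Of the 7 tested 6 fell in the wild type on norflurazon, where 9.85% of all tested probe sets fell. Their median was -1.63, with the largest fall in ndhA, at -3.19. In the mutant 1, ndhJ, was lower than in the wild type on norflurazon at -1.01 (limma adjusted p = 0.0274) and 0 were higher, with a median of -0.45. At an unadjusted p under 0.05, 3 of the 7 were lower, as were 8.37% of all tested probe sets. The 3 nuclear subunits were thus higher in the mutant, between 1.01 and 1.20, where the 7 plastid-encoded ones lay between -1.01 and -0.35, a contrast between the 2 lists that was not tested. The plastid-encoded core subunits of the photosystems are handled by the assembly factors, and 7 were tested. Of these 6 fell in the wild type on norflurazon, beside 9.85% of all tested probe sets, with a median of -2.28. In the mutant against the wild type on norflurazon their median was -0.49. There 0 of 7 passed the limma test and 1 was lower at an unadjusted p under 0.05. Both mutant arrays lay below both wild type arrays for 2 of the 7, as for 3159 of 13648 tested probe sets. The 2 wild type norflurazon arrays differed widely for psaA, with 118.5 and 24.5, against 39.9 and 31.5 in the mutant. Against the untreated wild type all 7 tested plastid-encoded NDH subunits and all 7 listed core subunits were lower in the mutant, beside 10.3% of all tested probe sets. Their medians were -2.08 and -2.72, with ndhA at -3.63 ± 0.20 and psaA at -3.54 ± 0.62 (SE). The mutant signals of psaA were near the filter signal of 27.6. The 25S ribosomal RNA signals given above differed widely between norflurazon arrays, and their part in plastid signals was not tested.

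**Figure D4:**
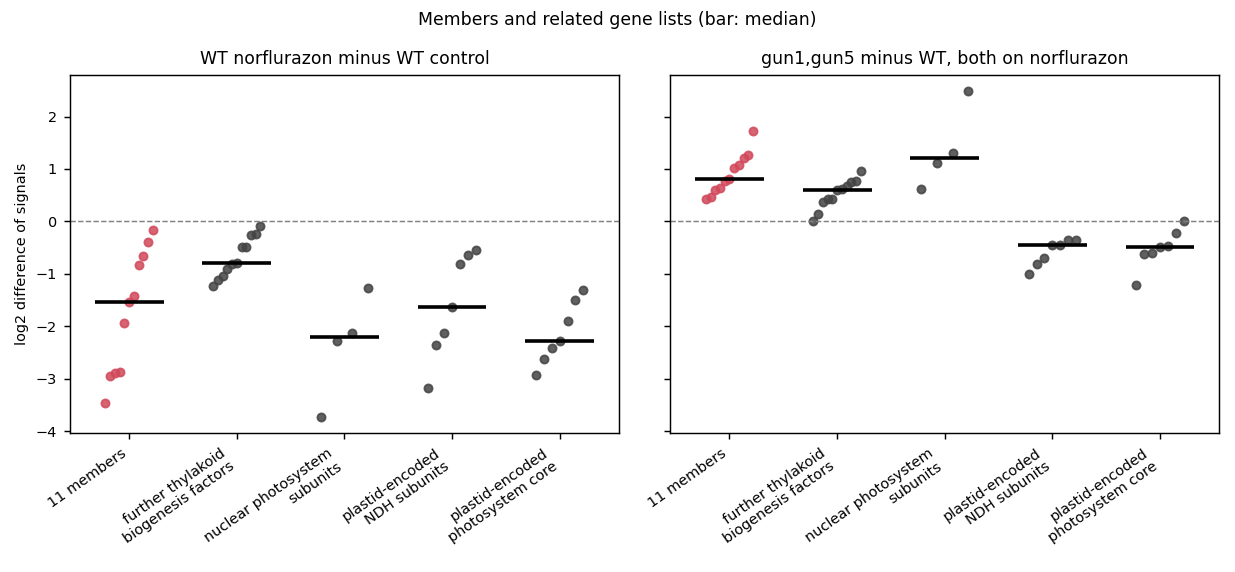
Log2 difference of signals (y axis) for the 11 genes and 4 related lists, in wild type norflurazon minus wild type control and in gun1,gun5 minus wild type on norflurazon; points are genes, spread sideways in order of value, and bars are medians. The 11 genes have a median of -1.54 on the left and 0.80 on the right, where the 7 tested plastid-encoded NDH subunits have a median of -0.45.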

How the data were processed

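The authors deposited linear intensity values, which were MAS5 signals per the submitters' processing notes, with no version stated in the sources used here. The arrays had been scaled before deposit, since each array's mean without the lowest and highest 2% of signals was 100.0. Of 22810 probe sets, 64 controls were left out. Intensities were turned into log2(signal + 0.05), with a pseudocount of 0.5 times the smallest positive signal. Probe sets with a mean log2 signal at or above the 40th percentile (a signal of 27.6) were kept, 13648 in all, and all 11 genes passed this filter. No detection calls were used. The number of arrays limits the precision.

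Group means were estimated from all 6 arrays together using lmFit and eBayes (trend = TRUE) of limma 3.58.1, run under R 4.3.3, with 3 residual and 4.89 prior degrees of freedom. P-values are two-sided and adjusted by the Benjamini-Hochberg method over all tested probe sets, with a threshold of 0.05. The fit of norflurazon against control was checked on simulated data. Names of probe sets came from GEO's platform annotation, updated through the RefSeq gene table of TAIR10.1; 13513 named 1 gene, 13436 of these matched a locus, 503 named several genes and 8794 are unnamed here. No 2 arrays shared more than 273 equal signals.

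The genes and lists were chosen with earlier results of these data known. Every listed gene named on the array is named; of the other lists, counts, medians and the member with the largest change past the threshold in the comparison described are given. The alternatives tried were pseudocounts of 1 and 16, no filter and one at the 60th percentile, quantile normalization, median centring, no intensity trend, the compared groups alone, a replicate block, and leaving out arrays. Replicate numbers come from the sample titles. Promoter and protein sequences were not used here.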

Additional observations from a re-analysis of the deposited data

How the results depend on the processing

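Of 561 single-gene values over 17 alternatives, 488 kept their direction and side of the threshold, 38 lost a call, 27 gained one and 8 changed sign. The sign changes were in values that did not pass. For AT1G22700, wild type norflurazon minus control was 0.30 without wild type norflurazon replicate 2 (alone or with mutant replicate 2), in a range of -0.64 to 0.30 with arrays left out, and mutant minus wild type on norflurazon was -0.041 without the first of these, in a range of -0.041 to 0.89. Mutant minus control was 0.0085 for LPA1 without mutant replicate 2 (alone or with wild type norflurazon replicate 2) and 0.15 without control replicate 2, in a range of -0.20 to 0.15. It was -0.009 for LPA2 without mutant replicate 1 (alone or with wild type norflurazon replicate 1), in a range of -0.009 to 0.16.

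Called genes for norflurazon in the wild type numbered 8, and 8 or 9 in the alternatives that kept 2 arrays in each compared group. The median over all 11 genes, -1.54, was -1.41 with a pseudocount of 16, and -1.71 to -1.50 with arrays left out. For mutant against wild type on norflurazon, the 5 calls became 2 with no filter, 3 without the intensity trend, 1 with the compared groups alone and 1 to 8 with arrays left out, the 8 being without both norflurazon arrays of a number, which leaves 2 control arrays to estimate the spread; the median of 0.80 was 0.74 to 0.92. For the mutant against the control, the 6 lower calls were 2 to 7 with arrays left out. The causes were not tested.

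With a replicate block the calls were 9, 7 and 7 in the 3 comparisons, against 8, 5 and 6. LPA1 was gained for norflurazon in the wild type (limma adjusted p = 0.0457, against 0.0509 without the block). For the mutant against the wild type on norflurazon, PSB27 (0.042, against 0.0917) and HCF101 (0.0442, against 0.0509) were gained. For the mutant against the control, PSB27 was gained (0.0256, against 0.0547). With the compared groups alone the limma adjusted p-values were 0.0769, 0.248, 0.197 and 0.00799 in the same order. The deviations from group means correlated at 0.45 between same-numbered arrays of the norflurazon groups, and at 0.07 and 0.08 between the control and each. The numbers are not stated to mark a shared planting.

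Over all probe sets the 250 higher and 152 lower calls of the mutant against the wild type on norflurazon were 149 and 86 with no filter, 73 and 36 with the compared groups alone, 164 higher without the trend, 237 lower with the block, and 60 to 1032 and 21 to 1061 with arrays left out. The 1345 lower and 1236 higher calls for norflurazon in the wild type were 459 to 2702 and 144 to 2930 with arrays left out. Those of the mutant against the control, 1404 and 1167, were 291 to 2569 and 97 to 2728, and 1949 higher with the compared groups alone. The highest counts with arrays left out came from fits without both norflurazon arrays of a number, which leave 2 control arrays to estimate the spread. No listed gene had a second probe set, so an alternative with second probe sets gave no value. The precision of 2 arrays a group limits small differences such as those of LPA1 and LPA2.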
